A study of Mus musculus with 12 samples.

Results

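The chemokine receptors described here are 9 mouse genes, Ccr1, Ccr2, Ccr3, Ccr7, Cx3cr1, Cxcr2, Cxcr4, Ccrl2 and Ackr3, of the 55487 genes counted in each of 2 RNA-seq experiments. Each was found by its Ensembl identifier, and all 9 were present in both count tables. The first experiment measured bone marrow macrophages (BMMs) of female C57BL/6 mice that had undergone ovariectomy (OVX) or a sham operation, with 3 libraries in each group. According to the methods, these cells were grown from leg-bone marrow with macrophage colony-stimulating factor. The second measured mesenchymal stem cells (MSCs), grown from the adherent cells of tibia and femur marrow, in 3 groups of 2 libraries. The MSC group was cultured alone. The MSC+RAW-TW group shared its medium, through a transwell membrane, with RAW264.7, an established mouse macrophage line, and in the MSC+RAW-LPS-TW group those macrophages had been treated with lipopolysaccharide (LPS), a bacterial cell wall component. The labels give an age of 8 weeks for the mice of all 5 groups, and the methods give the same age for the ovariectomy itself. The ovariectomy comparison asks how loss of the ovaries changes macrophages, and the cultures ask how nearby resting or LPS-treated macrophages change MSCs.

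Chemokine receptors sit in the plasma membrane and couple to inhibitory G proteins. When a chemokine binds, the G protein subunits separate and turn on phosphoinositide 3-kinase and Rac, and the cell moves up the chemokine gradient. G protein-coupled receptor kinases and arrestins then switch the receptor off and draw it into the cell, and RGS proteins switch the G protein off. In bone marrow, Cxcr4 and its ligand Cxcl12 retain blood cells, Ccr2 lets monocytes leave toward inflamed tissue, and Cx3cr1 marks monocytes, macrophages and osteoclast precursors. Ackr3 and Ccrl2 are atypical. Ackr3 takes up Cxcl12 and Cxcl11 without G protein signaling, and Ccrl2 holds chemerin, the product of Rarres2, at the cell surface.

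Libraries held 17012923 to 42401570 counts in the BMMs and 29823130 to 45367105 in the MSC experiment. Sham replicates 2 and 3, and likewise both MSC+RAW-TW libraries, differed by more than counting noise alone but about equally at low and high counts. The median chi-square between their counts was 2.63 to 2.80 times its value under counting noise in the sham pair and 3.08 to 3.34 times in the MSC+RAW-TW pair, from the fifth of genes with the fewest counts to that with the most, whereas in the other pairs it went from 3.62 to 6.80 times up to 26.8 to 185 times. The sham pair and the MSC+RAW-TW pair were each treated as near-identical and counted as 1 sample, which leaves 3 OVX against 2 sham samples, and 2 MSC, 1 MSC+RAW-TW and 2 MSC+RAW-LPS-TW samples. The single MSC+RAW-TW sample was assumed to vary like the other MSC groups. The sources used here do not say whether each library came from its own mouse or culture, so the p-values measure only the spread between these samples. Levels are in CPM, counts relative to the library total, scaled by TMM within each experiment, and differences are log2 fold changes with their standard errors (SE) from edgeR. A gene was called, here also "rose" or "fell", at a fold of at least 2 and an edgeR quasi-likelihood p of at most 0.05 after Benjamini-Hochberg adjustment over all genes tested.

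The labelled cell types were checked against marker genes. In the BMMs, the summed level of 15 macrophage markers ranged from 44526 to 49056 CPM in OVX and from 61025 to 65402 in sham. The same sum was 29498 to 29540 CPM in MSCs cultured alone, 39518 to 40082 in MSC+RAW-TW and 15768 to 16298 in MSC+RAW-LPS-TW, with 0 of the 15 markers absent in any group. Lyz2 made up most of each sum. Its group means were 37699 CPM in OVX, 49943 in sham, 21643 in MSC, 26460 in MSC+RAW-TW and 9579 in MSC+RAW-LPS-TW. Ptprc, the pan-leukocyte antigen CD45, was at 167 and 171 CPM in the MSCs cultured alone against 71.4 to 159 CPM in the BMMs. The 12 stromal markers summed to 1739 to 2634 CPM in the MSC experiment and to 5702 to 6715 CPM in the BMMs. All MSC groups thus expressed all of the macrophage markers. Ptprc was above the BMM range in MSCs cultured alone and in MSC+RAW-LPS-TW (227 and 210 CPM). In MSC+RAW-TW it was within that range (93.8 and 89.5 CPM). The BMM and MSC experiments were scaled separately. In all of these bulk samples, fewer cells of a type and less RNA per cell cannot be told apart, and which cells held the receptor RNA was not tested.

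Of the 9 genes, 5 lie on chromosome 9 (GRCm38). Ccr1 (chr9:123962124-123968692, minus strand), Ccr3 (chr9:124021972-124031689, plus strand) and Ccr2 (chr9:124101950-124113557, plus strand) stand together in a receptor cluster, with Ccr1l1 between Ccr1 and Ccr3 and Ccr9, Cxcr6 and Xcr1 before Ccr1. Ccrl2 (chr9:111054486-111057519, minus strand) and Cx3cr1 (chr9:119901616-120069879, minus strand) lie apart from the cluster. Chromosome 1 carries Cxcr2 (chr1:74153989-74161246, plus strand), Ackr3 (chr1:90203980-90216751, plus strand) and Cxcr4 (chr1:128588199-128592293, minus strand), and Ccr7 is on chromosome 11 (chr11:99144196-99155077, minus strand). Reads could be shared with other genes for 3 of the 9. Ccr2 shared 129 of its 6758 stretches of 50 exon bases with other genes, Cxcr2 shared 203 of 3039 with a repeat found in many genes, and 78 exon bases of Cx3cr1 lie opposite the gene Gm33858. The strand setting of the counting is not given in the sources used here, so reads of this antisense gene could be counted with Cx3cr1.

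LPS signaling acts through NF-kB, and the promoters of 8 members, all but Ccr7, were searched for 4 motifs in the RefSeq sequence of GRCm38.p6, from 250 bases before to 50 after the start site. The motifs were the NF-kB consensus, the AP-1 site TGANTCA, the estrogen response element GGTCANNNTGACC and the hypoxia response element ACGTG, each on both strands. They were chosen with the expression results known. The RefSeq promoters used here hold 3 start sites for Ccrl2 and 1 for each of the other 7 genes. The NF-kB consensus was found in 3 of the 8 genes, at 1 of the 3 Ccrl2 start sites and in Ccr1 and Ccr3. The shares of all 32851 promoters are counted per promoter and not per gene, and 8.46% of them held this motif. The AP-1 site was found in Ccr3 alone of the 8 (7.81% of all promoters) and the hypoxia element at all 3 start sites of Ccrl2 alone (19.6%). The hypoxia matches at -99 and -125 are the same bases, seen from neighboring Ccrl2 start sites. The estrogen element was found in 0 of the 8 and in 0.0700% of all promoters. The 200 bases before the start site are shown for the 3 genes with the NF-kB match, for Ccrl2 at the start site that holds it, because these genes moved in different ways in MSCs beside LPS-treated macrophages, where Ccrl2 rose, Ccr3 fell and Ccr1 did not pass the test. Capitals mark the matches. In Ccrl2 the first is the hypoxia element on the opposite strand, starting at position -82, and the second the NF-kB consensus at -56. In Ccr1 it is the NF-kB consensus at -74, and in Ccr3 the NF-kB consensus at -179 is followed by the AP-1 site at -144.
Ccrl2, chr9:111057519-111057718, minus strand: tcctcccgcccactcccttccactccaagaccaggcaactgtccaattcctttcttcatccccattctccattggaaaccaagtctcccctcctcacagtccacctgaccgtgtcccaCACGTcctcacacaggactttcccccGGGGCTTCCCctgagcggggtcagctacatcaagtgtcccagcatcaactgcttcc
Ccr1, chr9:123968693-123968892, minus strand: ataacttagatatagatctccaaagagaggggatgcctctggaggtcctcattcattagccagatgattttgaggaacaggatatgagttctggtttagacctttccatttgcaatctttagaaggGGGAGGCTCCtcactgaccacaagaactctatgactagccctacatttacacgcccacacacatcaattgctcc
Ccr3, chr9:124021771-124021970, plus strand: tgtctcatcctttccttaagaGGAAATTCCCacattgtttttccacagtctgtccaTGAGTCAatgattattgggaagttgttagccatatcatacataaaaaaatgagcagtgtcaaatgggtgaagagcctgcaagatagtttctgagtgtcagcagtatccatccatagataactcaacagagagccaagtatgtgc
A match is a description of these letters only, and no other search of the 3 promoters was made.

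In the BMMs, 3 receptors rose after ovariectomy, Ccr2, Cxcr4 and Cx3cr1, and 1 fell, Ackr3. The fit tested all 9 members among 16768 genes, of which 5.39% were called higher and 3.08% lower. The median log2 fold change was 0.60 over the 9 members and -0.01 over all genes tested. The members are read one by one below, and the plot of receptor levels shows every library.

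Ccr2, the receptor for the monocyte chemoattractants Ccl2, Ccl7, Ccl8 and Ccl12, had the largest difference of the 9. It was at 70.5, 54.4 and 47.2 CPM in OVX replicates 1 to 3 and at 9.68, 11.5 and 10.8 CPM in sham replicates 1 to 3. The lowest OVX library was far above the highest sham library. The log2 fold change was 2.45 ± 0.24 (SE), a 5.48-fold difference with an edgeR adjusted p of 0.00301. With trends on GC content and length removed it was 1.63 (edgeR adjusted p = 0.00413).

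Cxcr4, the receptor for Cxcl12, was at 69.6, 60.6 and 93.3 CPM in OVX replicates 1 to 3 and at 23.7, 30.4 and 31.5 CPM in sham replicates 1 to 3. All OVX libraries lay above all sham libraries. Its log2 fold change was 1.43 ± 0.25 (SE), or 2.70-fold (edgeR adjusted p = 0.0113). Cx3cr1, the fractalkine receptor, was at 169, 229 and 298 CPM in OVX replicates 1 to 3 against 86.3, 97.6 and 92.3 in sham. The OVX libraries spread widely but did not overlap the sham libraries. Its log2 fold change was 1.35 ± 0.26 (SE), or 2.55-fold (edgeR adjusted p = 0.0155). With OVX replicate 2 left out it was 1.37 in log2, and the call was lost (edgeR adjusted p = 0.0718), in a fit in which the calls over all genes went from 1419 to 309.

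Ackr3, which scavenges the Cxcr4 ligand Cxcl12, went the other way. It was at 2.04, 2.51 and 1.87 CPM in OVX replicates 1 to 3 and at 4.63, 4.37 and 4.36 CPM in sham, on 63 to 178 counts a library. The groups did not overlap. The log2 fold change was -1.08 ± 0.28 (SE) with an edgeR adjusted p of 0.0388, close to both limits of the call. Without OVX replicate 1, 2 or 3 or without sham replicate 1 it ranged from -1.20 to -0.99, and in each of these 4 cases the call was lost (edgeR adjusted p 0.0645 to 0.109).

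Ccr1, a receptor for Ccl3, Ccl5, Ccl6, Ccl7 and Ccl9 that also takes part in osteoclast formation, was at 45.4, 34.7 and 23.1 CPM in OVX and at 23.0, 9.43 and 11.6 CPM in sham. OVX replicate 3 and sham replicate 1 were nearly level. The log2 fold change of 1.02 ± 0.38 (SE) did not pass the test (edgeR adjusted p = 0.112). Without sham replicate 1, which leaves the near-identical pair as the only sham sample, it was 1.68 and called (edgeR adjusted p = 0.00964), and with trends on GC content and length removed it was 0.22. Ccr7, the homing receptor of mature dendritic cells and lymphocytes, was near the limit of detection, with 5, 21 and 26 counts in OVX and 61, 27 and 23 in sham. As levels these were 0.152, 0.549 and 0.770 CPM against 1.59, 1.71 and 1.11 CPM, and the groups did not overlap. Its log2 fold change of -1.59 ± 0.59 (SE) did not pass the test (edgeR adjusted p = 0.114).

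The other 3 members did not pass the test either, and their groups overlapped. Ccrl2 was at 7.94 to 9.67 CPM in OVX and 7.95 to 8.99 in sham, with a log2 fold change of 0.01 ± 0.21 (SE) and an edgeR adjusted p of 0.977. Ccr3, the eotaxin receptor of eosinophils, was at 2.14 to 3.78 CPM in OVX and 1.20 to 2.73 in sham (log2 fold change 0.48 ± 0.41), and its sign turned to -0.31 once GC and length trends were removed. Cxcr2, the neutrophil receptor for Cxcl1, Cxcl2, Cxcl3 and Cxcl5, was at 1.25 to 2.99 CPM in OVX and 0.949 to 1.74 in sham (log2 fold change 0.60 ± 0.44).

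**Figure D1:**
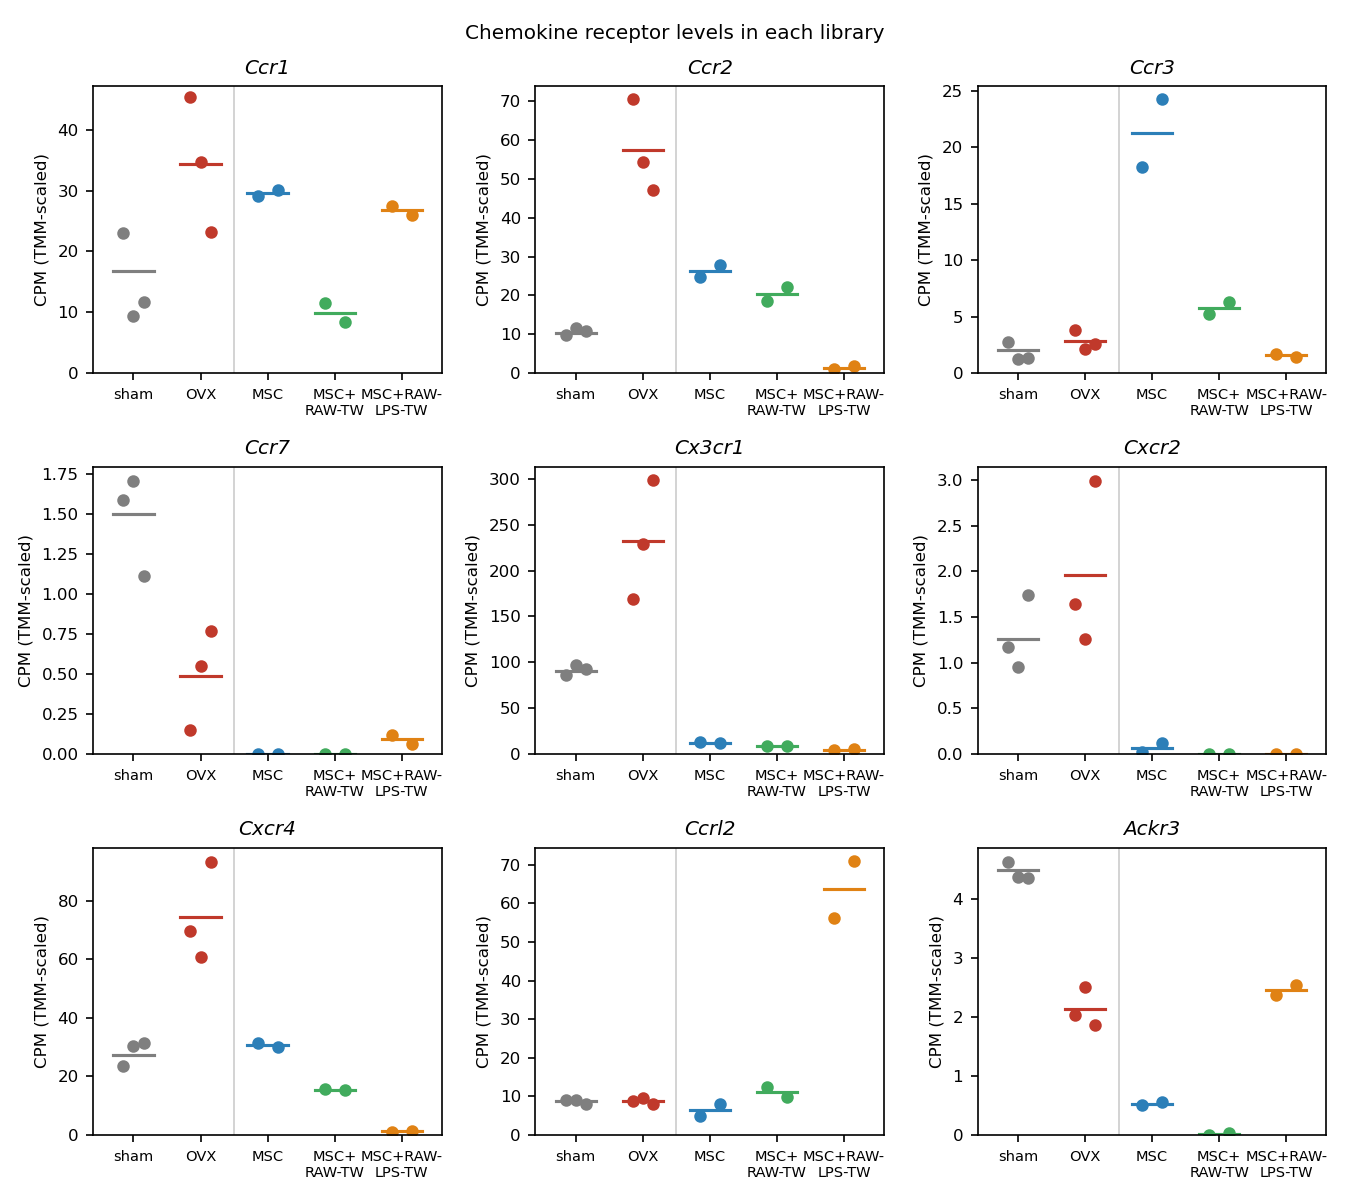
Level of each of the 9 receptors in every library, in TMM-scaled CPM on a linear axis from 0 with its own scale in each panel. Points are libraries, lines are group means with a near-identical pair averaged as 1 sample, and the vertical grey line separates the BMM and MSC experiments, which were scaled separately. Ccr2 is at 47.2 to 70.5 CPM in OVX against 9.68 to 11.5 in sham, and Ccrl2 at 56.2 and 71.0 CPM in MSC+RAW-LPS-TW against 4.96 and 8.09 in MSC.

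Several measurements moved with ovariectomy in the same libraries. Over 16751 genes, the deviation of a library from the mean had a Spearman correlation with GC content of -0.33 to -0.60 in the OVX libraries and 0.22 to 0.52 in the sham libraries. The exons of Ccr1, Ccr2 and Ccr3 were the poorest in GC of the 9 members, at 39.1%, 39.4% and 39.1%, against a median of 49.3% over the genes tested. Of the other members, Cx3cr1 and Ackr3 were near that median at 50.3% and 49.0%. Their folds moved little when the trends were removed (1.45 and -1.07), and Cxcr4 stayed called at 1.22. Of 7 monocyte markers, 1 rose (Vcan, 1.72) and 1 fell (Ly6c2, -1.19), and the list summed to 3685 to 3868 CPM in OVX against 2697 to 3230 in sham. Of 15 macrophage markers, 0 rose and 4 fell (Spi1, -1.46, Aif1, -1.31, Adgre1, -1.19 and Fcgr1, -1.12). Of 10 neutrophil markers, 0 were called in either direction, with a median log2 fold change of 0.38, and the list summed to 1212.5 to 1343 CPM in OVX against 823 to 955 in sham, with no overlap. Ly6g, a defining neutrophil marker, was below 1 CPM in both groups. The part of these lists in the receptor differences was not tested.

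The ligands of the members did not rise with their receptors. Of 22 ligands, 17 were tested in the BMMs, 0 were called higher and 5 lower, with a median log2 fold change of -0.96. For Ccr2, which rose, Ccl8 fell by 2.15 and Ccl12 fell by 1.43 on the log2 scale, while Ccl2 was at 126, 84.5 and 66.5 CPM in OVX and 241, 109 and 101 in sham without passing the test (log2 fold change -0.91 ± 0.37). Cxcl12, the ligand of Cxcr4 and Ackr3, was at 947 to 1168 CPM in OVX and 845 to 1029 in sham and did not pass the test. Fractalkine, Cx3cl1, was at 3.02 to 6.66 CPM in OVX against 7.68 to 11.2 in sham, with a log2 fold change of -0.91 that did not pass the test either. The remaining called ligands were Rarres2 (-2.73, with sham replicate 1 at 7.60 CPM and the other two at 1.20 and 1.45), Ccl5 (-2.06) and Cxcl1 (-1.67).

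Of 28 signaling partners, all tested, 5 rose and 7 fell in OVX, with a median of -0.42. The 5 that rose were the G protein regulators Rgs1 (2.07), Rgs18 (1.60) and Rgs2 (1.24) and the inhibitory G protein subunits Gnai1 (1.29) and Gnai3 (1.14). Those that fell most were Rac2 (-2.0), the phosphoinositide 3-kinase subunit Pik3r5 (-1.44), the Rac activators Vav1 (-1.42) and Prex1 (-1.33), the receptor kinase Grk2 (-1.32) and the arrestin Arrb1 (-1.22). Of 16 further chemokine receptors, 10 were tested, 0 rose and 1 fell. That gene was Xcr1, which marks a class of dendritic cells, at 0.415 to 0.701 CPM in OVX and 1.27 to 1.74 in sham (log2 fold change -1.52, edgeR adjusted p = 0.0472).

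In MSCs beside LPS-treated macrophages, the receptor profile was largely exchanged. Against MSCs cultured alone, Cxcr4, Ccr2, Ccr3 and Cx3cr1 fell and Ccrl2 and Ackr3 rose, so that 6 of the 7 members tested were called. Ccr7 and Cxcr2 had too few counts to be tested. Of the 20499 genes tested in this comparison, 5.85% were called higher and 5.09% lower. All 6 calls held when any 1 library was left out, except that of Ackr3 without MSC replicate 1.

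Cxcr4 was at 31.4 and 30.0 CPM in the MSC replicates 1 and 2 and at 0.960 and 1.53 CPM in the MSC+RAW-LPS-TW libraries named MRL-2 and MRL-3 in the count table. The log2 fold change was -4.63 ± 0.25 (SE), a 24.7-fold difference (edgeR adjusted p = 2.07e-09). Ccr2 was at 24.8 and 27.8 CPM in MSC and at 1.08 and 1.69 CPM in MSC+RAW-LPS-TW. Both groups were tight beside the distance between them, and the log2 fold change was -4.25 ± 0.25 (SE), or 19.0-fold (edgeR adjusted p = 5.42e-09). Ccr2 is also among the genes that the study plotted from these MSC libraries, so its direction here is not independent evidence.

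Ccr3 was at 18.2 and 24.3 CPM in MSC and at 1.71 and 1.43 CPM in MSC+RAW-LPS-TW, with a log2 fold change of -3.76 ± 0.26 (SE) and an edgeR adjusted p of 3.52e-08. Of 8 eosinophil, basophil and mast cell markers, 7 were below 1 CPM in each MSC group and the remaining one, Mcpt8, rose (1.27). Cx3cr1 was at 12.7 and 12.2 CPM in MSC and at 4.11 and 5.17 CPM in MSC+RAW-LPS-TW, a smaller difference of -1.43 ± 0.23 (SE) in log2 (edgeR adjusted p = 0.000310). Ccr1, the neighbor of Ccr3 and Ccr2 on chromosome 9, was nearly level at 29.1 and 30.1 CPM in MSC and 27.5 and 26.0 in MSC+RAW-LPS-TW. Its log2 fold change of -0.15 ± 0.17 (SE) did not pass the test (edgeR adjusted p = 0.610).

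The 2 members that rose were the atypical receptors. Ccrl2 was at 4.96 and 8.09 CPM in MSC and at 56.2 and 71.0 CPM in MSC+RAW-LPS-TW, with a log2 fold change of 3.29 ± 0.23 (SE), or 9.80-fold (edgeR adjusted p = 3.38e-08). Ackr3 was at 0.510 and 0.557 CPM in MSC, on 25 and 19 counts, and at 2.37 and 2.55 CPM in MSC+RAW-LPS-TW, on 79 and 80 counts. The levels were close within each group, and the log2 fold change was 2.20 ± 0.54 (SE, edgeR adjusted p = 0.00757). Without MSC replicate 1 it was 2.13 with an edgeR adjusted p of 0.0651.

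**Figure D2:**
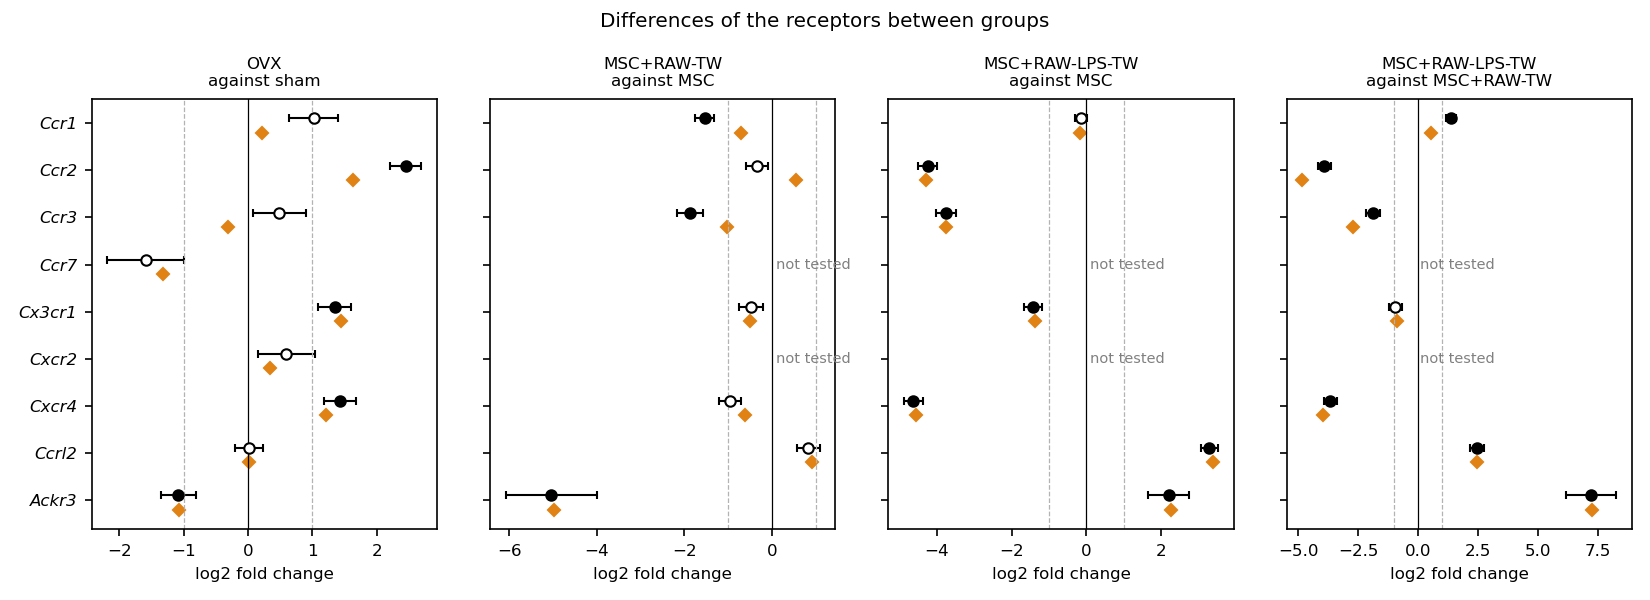
Log2 fold change of each receptor in the 4 comparisons. Circles are the edgeR estimates with bars of 1 SE, filled where the gene was called, orange diamonds are the estimates after trends on GC content and gene length were removed, and dashed lines mark a fold of 2. The MSC+RAW-LPS-TW estimates against MSC differ by at most 0.098 between the circles and the diamonds, whereas Ccr1, Ccr2 and Ccr3 shift by 0.80 to 0.92 in the other 3 comparisons.

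Ligands of the members were called in both directions in this comparison. Of 18 ligands tested, 10 rose and 4 fell, with a median log2 fold change of 1.78 against -0.01 over all genes. Of the 5 Cxcr2 ligands, 4 rose, with Cxcl1 at 5.82, Cxcl3 at 5.58, Cxcl2 at 5.56 and Cxcl5 at 4.70 in log2, while Ppbp, at 0.998, was not called. Cxcl1 went from 12.3 and 21.2 CPM in MSC to 1069 and 825 CPM in MSC+RAW-LPS-TW. Their receptor Cxcr2 itself was barely detected, with 1 and 4 counts in the MSC replicates 1 and 2 and 0 counts in the other 4 libraries of the experiment. Of 10 neutrophil markers, which summed to 18.1 to 23.4 CPM in MSC and 402 to 583 CPM in MSC+RAW-LPS-TW, 3 of the 4 tested rose (Camp, 5.81, S100a8, 5.004, and Mmp8, 2.14). S100a8 made up most of the MSC+RAW-LPS-TW sum, at 341 and 517 CPM. The defining markers Ly6g, Mpo, Elane, Ltf and Retnlg, and also S100a9 and Ngp, were below 1 CPM in both groups.

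For the receptors that fell, the ligands did not share one direction. Of the Ccr2 ligands, Ccl2 rose (1.69, from 195 and 295 CPM to 775 and 814 CPM) while Ccl8 (-2.38) and Ccl12 (-1.87) fell. Of the Ccr3 ligands, Ccl5 rose (3.21) and Ccl24, an eotaxin on at most 4 counts in MSC+RAW-LPS-TW, fell (-4.12). Cx3cl1 rose by 2.37 as its receptor Cx3cr1 fell, from 19.1 and 22.4 CPM to 106 and 108 CPM. Cxcl12 was at 328 and 353 CPM in MSC and 179 and 210 CPM in MSC+RAW-LPS-TW, a log2 fold change of -0.81 that stayed under the fold limit. For the receptors that rose, Rarres2 (1.86) rose together with Ccrl2, and Cxcl11 (4.08, on 5 and 6 counts in MSC and 98 and 55 in MSC+RAW-LPS-TW) with Ackr3. The remaining calls were in ligands of Ccr1, of which Ccl3 rose (4.06) and Ccl6 fell (-2.44). Ccl3 and Ccl5 also belong to the genes the study plotted from these libraries. No library was made from the RAW264.7 cells alone, which stood across the membrane. Whether RNA of these cells was carried into the MSC libraries was not tested.

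**Figure D3:**
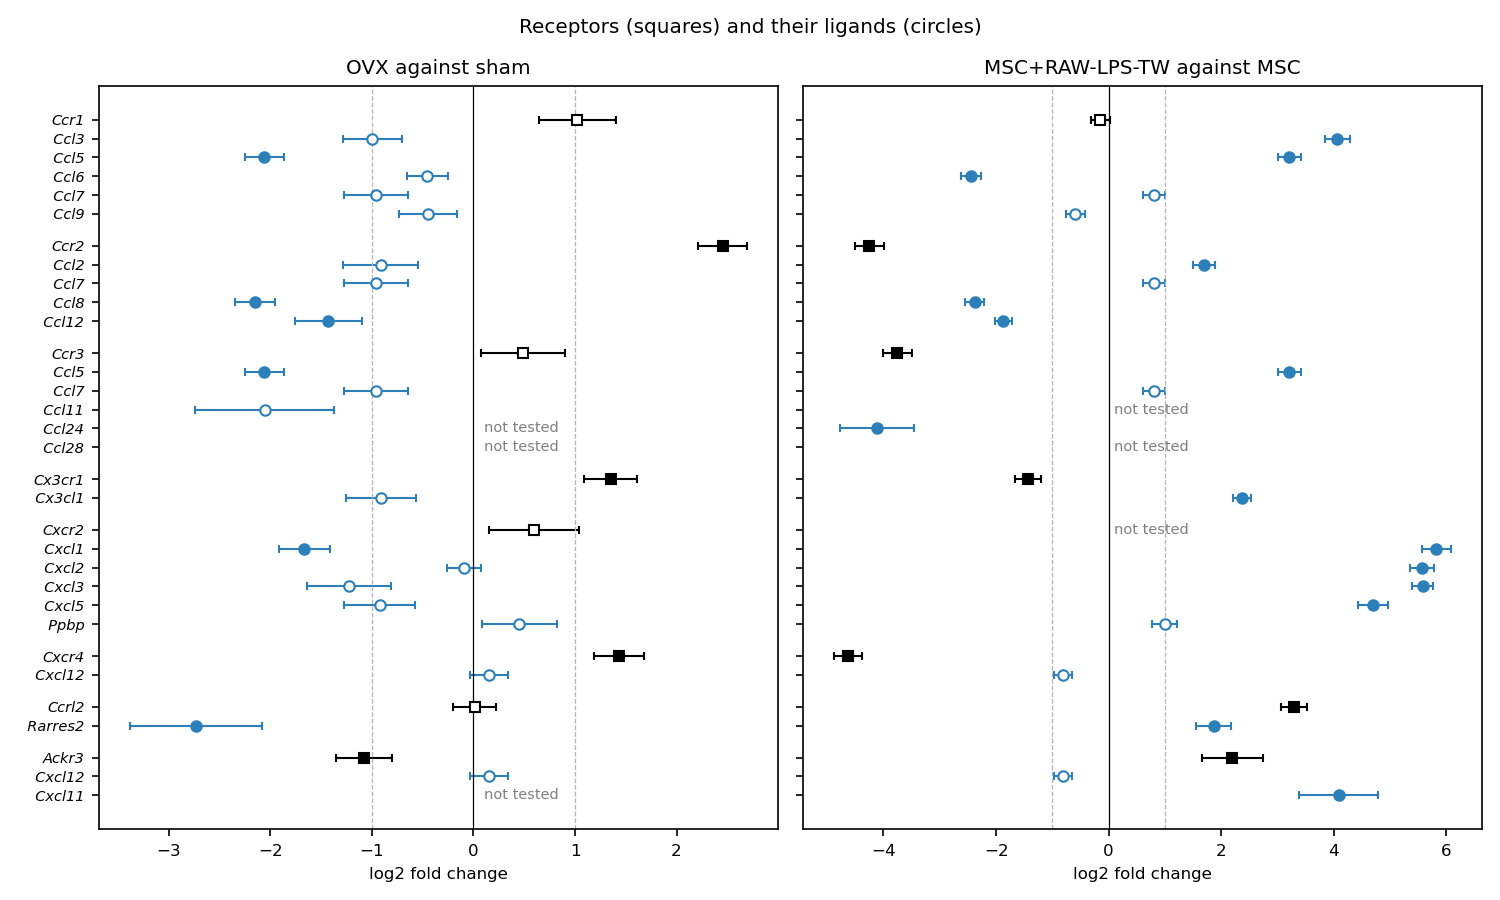
Log2 fold change of the receptors (black squares) and of their ligands below each (blue circles), with bars of 1 SE, in OVX against sham and in MSC+RAW-LPS-TW against MSC. Filled symbols were called, dashed lines mark a fold of 2, and a ligand of several receptors appears under each. In OVX the filled ligands all lie left of 0, and in MSC+RAW-LPS-TW 10 of the 18 ligands tested were called right of 0 while Cxcr4, Ccr2, Ccr3 and Cx3cr1 were called left of it.

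Of the 28 signaling partners, 4 rose and 7 fell in MSC+RAW-LPS-TW against MSC, with a median of 0.17. Jak2, a kinase of cytokine receptors that chemokine receptors can also engage, rose by 3.14, Rgs16 by 1.70, Gnai1 by 1.35 and Rac2 by 1.06. Rgs2 (-2.95), Rgs10 (-2.08), the phospholipase Plcb2 (-1.44), Arrb1 (-1.35), Rgs18 (-1.23) and the G protein subunit Gng2 (-1.23) were the 6 that fell most. Among further chemokine receptors, 0 rose, and Ackr4 (-3.13) and Cxcr3 (-1.92) fell. Of the 15 macrophage markers, 5 fell, among them Cd68 (-2.82), and Adgre1 rose (1.42), from 511 and 584 CPM to 1535 and 1404. Of 7 monocyte markers, 6 were tested, of which Plac8 (1.66) and Vcan (1.21) rose and F13a1 (-3.996) fell, and the list summed to 2835 to 2890 CPM in MSC+RAW-LPS-TW against 1819 to 1957 in MSC. Of 8 dendritic cell markers, 6 were tested and 2 were called higher, Il12b and Ccl22, both at 0 in MSC, and the list summed to 168 to 204 CPM against 105 to 106. Most of this sum was Fscn1, at a mean of 179 CPM against 102, which was not called (0.81). Il12b and Ccl22 were at means of 3.90 and 0.491 CPM in MSC+RAW-LPS-TW. Of 12 mesenchymal stromal markers, Nt5e rose (2.87) and 0 fell, with sums of 2601 to 2634 CPM against 2082 to 2175. Whether these markers and the receptors moved in the same cells was not tested.

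MSCs beside untreated macrophages were also set against MSCs cultured alone. The 3 calls of 7 members tested were all lower, in Ccr1, Ccr3 and Ackr3, where 6.8% of all 20499 genes were called higher and 9.59% lower. The median of all genes was itself shifted to -0.13 in this comparison and to 0.01 with the length trend removed. The member values here are to be read against that shift. Cell type markers moved in the same libraries. Of 15 macrophage markers, 5 rose (Tyrobp, 1.67, C1qb, 1.55, C1qa, 1.23, Spi1, 1.10, and Aif1, 1.06) and 0 fell, and the list summed to 39518 to 40082 CPM in MSC+RAW-TW against 29498 to 29540 in MSC. Of 12 mesenchymal stromal markers, 2 rose (Thy1, 2.42, and Eng, 1.06) and 2 fell (Prrx1, -1.32, and Pdgfra, -1.07), with sums of 1739 to 1765 CPM against 2082 to 2175. Of 10 neutrophil markers 4 were tested and 1 rose (S100a8, 1.27), with sums of 38.5 to 41.8 CPM against 18.1 to 23.4, and S100a9, Mpo, Ltf and Retnlg were at 0 in both groups. Of 6 monocyte markers tested, 0 rose and 1 fell (F13a1, -1.05). The part of these markers in the receptor differences was not tested.

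Ccr1 was at 29.1 and 30.1 CPM in MSC and at 11.5 and 8.31 CPM in the MSC+RAW-TW libraries, a difference of -1.53 ± 0.22 in log2 (SE, edgeR adjusted p = 0.000293). With GC and length trends removed it was -0.71 (edgeR adjusted p = 0.0208), under the fold limit. Ccr3 was at 18.2 and 24.3 CPM in MSC and at 5.21 and 6.33 CPM in MSC+RAW-TW. The difference was -1.86 ± 0.30 in log2 (SE, edgeR adjusted p = 0.000522) and stayed called at -1.04 without these trends. Ccr3 thus stood in the order MSC, MSC+RAW-TW, MSC+RAW-LPS-TW, with no overlap between neighbors.

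Ackr3 had 0 and 1 counts in the MSC+RAW-TW libraries against 25 and 19 in MSC. The ratio of MSC to MSC+RAW-TW was 50.4, with an exact 95% interval of 8.58 to 2035 that covers counting error only, and edgeR called the gene lower (adjusted p = 0.00256). The interval takes each count as independent, and would be too narrow if both reads of a pair were counted. The MSC+RAW-TW libraries held few genes of low count altogether. They had 4732 and 5070 genes with 1 to 20 counts, against 7456 to 9576 in the other 10 libraries. Of 2422 genes within 1.5-fold of the MSC level of Ackr3, 24.4% had at most 1 count over both MSC+RAW-TW libraries, against 2.31% over the MSC+RAW-LPS-TW libraries. The part of this in the low count of Ackr3 was not tested.

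The other 4 tested members were not called. Cxcr4, at 15.7 and 15.3 CPM in MSC+RAW-TW, and Ccrl2, at 12.4 and 9.95 CPM, lay outside the range of MSC, with log2 fold changes of -0.96 ± 0.25 and 0.83 ± 0.26 (SE) that stayed under the fold limit (edgeR adjusted p = 0.0113 and 0.0249). Each crossed the limit when 1 library was left out, Cxcr4 at -1.002 without the deeper MSC+RAW-TW library and Ccrl2 at 1.21 without MSC replicate 2. Cx3cr1, at 9.17 and 8.28 CPM, and Ccr2, at 18.7 and 22.1 CPM, also lay outside the range of MSC. They did not pass the test (log2 fold changes -0.48 ± 0.28 and -0.35 ± 0.25). The share of all genes without overlap between groups was not counted in any comparison. The sign of Ccr2 turned to 0.54 once GC and length trends were removed.

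Of 18 ligands tested in this comparison, 2 rose, Ccl5 (2.15) and Ccl8 (1.12), and 4 fell, Cxcl3 (-2.15), Cxcl1 (-2.06), Ccl2 (-1.33) and Cxcl11. Cxcl11 had 0 counts in both MSC+RAW-TW libraries and 5 and 6 in MSC. The only calls among the 28 signaling partners were Rac2 (1.25) and Rgs1 (-1.68). Among further receptors, Cxcr6 and Ccr9 were called lower and had 0 counts in both MSC+RAW-TW libraries against 24 to 59 and 5 to 16 counts in the MSC libraries. Xcr1 had 0 counts there too, against 10 and 14 in MSC. Cxcl11, Cxcr6, Ccr9 and Xcr1 were all low in MSC, and the MSC+RAW-TW libraries held few genes of low count, as given for Ackr3. The part of this in their counts of 0 was not tested.

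Set against MSC+RAW-TW, MSC+RAW-LPS-TW had 6 of 7 tested members called, where 15.4% of all genes were called higher and 12.0% lower and the median of all genes was 0.14. Ccr2 (log2 fold change -3.90 ± 0.27), Cxcr4 (-3.67 ± 0.27) and Ccr3 (-1.89 ± 0.29) were lower, with edgeR adjusted p of 4.52e-08, 8.35e-08 and 0.000108. Ccrl2 (2.46 ± 0.29, edgeR adjusted p = 9.07e-06) and Ccr1 (1.38 ± 0.22, edgeR adjusted p = 0.000134) were higher. The call of Ccr1 was lost at 0.55 with GC and length trends removed, whereas Ccr2 and Ccr3 moved further down, to -4.82 and -2.73. Ackr3 was higher on 79 and 80 counts against 0 and 1, a ratio of 199 with an exact 95% counting interval of 35.2 to 7902. This interval, too, takes each count as independent. Cx3cr1, at -0.95 ± 0.27, was under the fold limit (edgeR adjusted p = 0.0115) and passed it at -1.11 without the library named MRL-3. This comparison shares its samples with those before it, so its values are given side by side with theirs and not as further support. Of the 15 macrophage markers 4 rose and 7 fell here, of the 4 neutrophil markers tested 3 rose, and of the 12 stromal markers 3 rose and 1 fell, and their part in the receptor differences was not tested.

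In the same comparison 12 of 18 ligands rose and 4 fell, with Cxcl1 at 7.88, Cxcl3 at 7.73, Cxcl2 at 5.95, Cxcl5 at 5.62, Ccl3 at 4.21 and Ccl2 at 3.03 in log2, and Ccl24 at -4.70, Ccl8 at -3.50, Ccl12 at -1.59 and Ccl6 at -1.45. Ccl5 rose by 1.06, Ccl7 by 1.06, Cx3cl1 by 2.20 and Rarres2 by 1.64, and Cxcl11 was called higher from 0 counts. Of the signaling partners 4 rose, Jak2 (3.53), Gnai1 (1.57), Gnai3 (1.15) and Pik3cg (1.05), and 8 fell, most of all Rgs2 (-3.44), Rgs10 (-2.60), Gng2 (-1.81), Arrb2 (-1.67), Arrb1 (-1.49) and Plcb2 (-1.43). Among further receptors Ackr4 (-3.95) and Cxcr3 (-2.94) fell, and Cxcr6, Ccr9 and Xcr1 were called higher against MSC+RAW-TW libraries at 0 counts.

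Levels of different receptors were compared only per kb of exon. In sham BMMs the order was Cx3cr1 (20.1 CPM per kb), Cxcr4 (15.1), Ccr1 (5.91), Ccrl2 (3.35), Ccr2 (1.54), Ackr3 (1.34), Ccr7 (0.758), Ccr3 (0.613) and Cxcr2 (0.413). The libraries of Ccr1 and Ccrl2 overlapped there, as did those of neighbors from Ccr7 to Cxcr2. In OVX Cx3cr1 (51.6) and Cxcr4 (41.2) led again, with overlapping libraries, and Ccr1 (12.1) and Ccr2 (8.48) followed, also overlapping. These were followed by Ccrl2 (3.39), Ccr3 (0.869), Cxcr2 (0.644), Ackr3 (0.639) and Ccr7 (0.248), with overlap between Ccr3 and Cxcr2 and between Cxcr2 and Ackr3. The 9 members summed to 49.2 CPM per kb in sham and 119 in OVX, and Cx3cr1 and Cxcr4 made up 40.9% and 30.7% of the sum in sham and 43.3% and 34.6% in OVX.

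In MSCs cultured alone Cxcr4 (17.0 CPM per kb), Ccr1 (10.5) and Ccr3 (6.50) led, followed by Ccr2 (3.89), Cx3cr1 (2.77), Ccrl2 (2.51) and Ackr3 (0.159). Of these neighbors Cx3cr1 and Ccrl2 overlapped. In MSC+RAW-TW the order was Cxcr4 (8.56), Ccrl2 (4.31), Ccr1 (3.50), Ccr2 (3.02), Cx3cr1 (1.94), Ccr3 (1.76) and Ackr3 (0.00430), with overlap between Ccrl2 and Ccr1, Ccr1 and Ccr2, and Cx3cr1 and Ccr3. In MSC+RAW-LPS-TW Ccrl2 (24.5) was first and Ccr1 (9.45) second, and the remaining members were at 1.03 or below. Ccrl2 made up 5.81% of the summed level in MSC, 18.7% in MSC+RAW-TW and 66.0% in MSC+RAW-LPS-TW, while Cxcr4 made up 39.2%, 37.1% and 1.86%. The sum over the members was 43.3, 23.1 and 37.1 CPM per kb in the same order of groups. Ccr7 was last or next to last in each MSC group, with 0 counts in 4 libraries, which allows up to 3 counts or 0.0661 to 0.101 CPM in a library, and 4 and 2 counts in MSC+RAW-LPS-TW. Cxcr2 was not detectable at this depth in MSC+RAW-TW and MSC+RAW-LPS-TW.

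**Figure D4:**
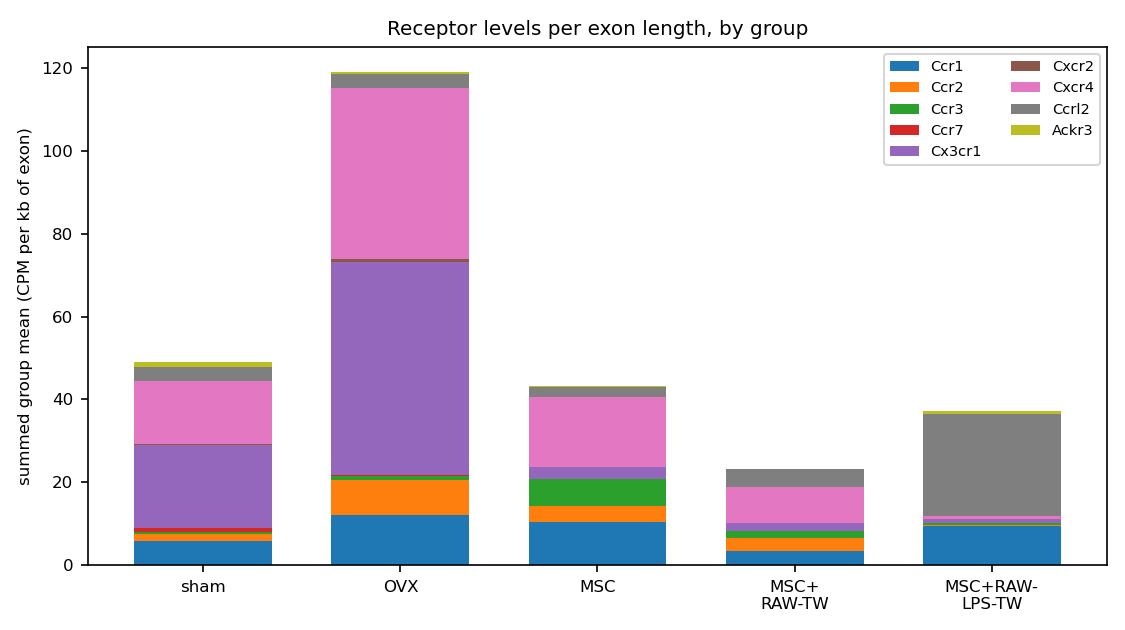
Group means of the 9 receptors in CPM per kb of exon, stacked by group on an axis from 0. The BMM groups (sham, OVX) and the 3 MSC groups were scaled separately. Cx3cr1 and Cxcr4 fill most of the OVX bar of 119 CPM per kb, and Ccrl2 makes up 66.0% of the MSC+RAW-LPS-TW bar.

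Across groups, Cx3cr1 was highest in OVX (232 ± 64.5 CPM, SD, n = 3) and next in sham (90.6 ± 6.13, n = 2), Cxcr4 was highest in OVX (74.5 ± 16.9, n = 3) and Ccrl2 in MSC+RAW-LPS-TW (63.6 ± 10.5, n = 2). Ccr3 was higher in MSCs cultured alone (21.3 ± 4.27 CPM, n = 2) than in either BMM group (2.84 ± 0.842 in OVX, n = 3, and 2.01 ± 1.03 in sham, n = 2), and Ackr3 was lower (0.534 ± 0.0332 against 2.14 ± 0.333 and 4.50 ± 0.191). These levels come from experiments scaled separately, and the difference between experiments was not tested.

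The pattern of each member over the 10 distinct samples of both experiments was compared with that of 13541 genes by Pearson's r of log2 CPM. These values rest on 5 groups and on the distance between the experiments, and they are descriptions. The closest genes were Lrrc17 and Acta2 for Cx3cr1 (r = 0.995 and 0.990), Atp6v0d2 and Ptgs1 for Cxcr4 (0.986 and 0.985), Fam49a for Ackr3 (0.978) and Slc25a40 and Psmd6 for Ccr1 (0.981 and 0.973). They were 3425401B19Rik and Map2k6 for Ccrl2 (0.977 and 0.975), Gm5086 and Bmp4 for Ccr2 (0.971 and 0.971) and Ptpro and Rhoh for Ccr3 (0.969 and 0.966). Among the members themselves, Ccr2 and Cxcr4 were most alike (0.954) and Ccrl2 and Cxcr4 most opposed (-0.878).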

How the data were processed

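According to the methods, the authors sequenced poly(A) RNA in read pairs from a directional library kit. They trimmed adapters with Trim Galore 0.6.7, mapped to GRCm38 with HISAT2 2.1.0 and counted reads on Ensembl genes with featureCounts 2.0.1. The deposited counts are whole numbers for each gene in each library, without normalization or a filter. The strand setting and the counting of pairs are not given in the sources used here. Even values made up 60.0% to 71.4% of the counts from 1 to 20 in each library. Whether both reads of a pair were counted was not tested. The deposited counts also carry each gene's exon length in base pairs.

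Gene names and coordinates came from GENCODE M21 on GRCm38, which named 55227 of the 55487 identifiers. Both experiments were fitted separately with edgeR 4.0.16 in R 4.3.3 (TMM, filterByExpr, two-sided quasi-likelihood F-test, Benjamini-Hochberg adjustment), with near-identical libraries summed and all 3 MSC groups in one fit. A pair was near-identical when the chi-square between its counts stayed flat over the range of counts. From the lowest to the highest counts it rose 1.06 and 1.09 times in the pairs that were summed, against 5.31 to 35.5 times in the others. The fit and DESeq2 were tested on simulated data. CPM in the search for similar patterns was scaled over both experiments, with a pseudocount of 0.5 and a mean of at least 1 CPM. Precision follows from the library totals given with the results, and counting intervals cover counting error only. Counting noise, counting intervals and the limit of 3 counts take each count as independent. They would be understated if both reads of a pair were counted.

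Alternatives were RLE scaling, DESeq2 1.42.0, no filter or a mean CPM of 1, all libraries separate, a replicate block, each library left out, only the 2 groups compared, no fold limit, and lowess trends (span 0.3) on length or on GC content and length removed. A block on the library number was added after the data were seen. The members, lists, motifs and tests were chosen with earlier results of these data known. The text names the 9 members, called genes of the fixed lists (up to 6 with the largest fold in each direction, and called ligands of called members) and the 2 genes most like each member. Some genes that this rule would name are not reported here. Ccl2, Cxcl12 and Cx3cl1 in the BMMs, Cxcl12 in the MSCs, Xcr1 in MSC+RAW-TW and the markers given with their folds were named after their values were seen. Summaries and plots were made in python 3.11.15 using pandas 2.3.3, scipy 1.17.1 and matplotlib 3.10.9.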

Additional observations from a re-analysis of the deposited data

How the results depend on the processing

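Of 449 recomputed fold changes of the members, 425 kept their direction and their side of the call, 12 passed the limits, 8 no longer did and 4 changed sign, and of 128 recomputed counts of called genes or members 118 stayed within 1.5 times the value reported. Which cause underlies a change was not tested, apart from leaving out samples, which also leaves fewer of them. In OVX against sham, 1419 genes were called (63.6% of them higher), 2193 with no fold limit and 590 with GC and length trends removed (37.3% higher). Leaving out 1 library gave 309 (without OVX replicate 2) to 2390 (without sham replicate 1), with 678 without OVX replicate 1, and 2 to 4 members called, the 2 being Ccr2 and Cxcr4. Ccr3 turned to -0.31 with GC and length trends removed, and Ccrl2 ranged from -0.050 to 0.085 around 0 as libraries were left out. DESeq2 called 5 members, adding Ccr1. In MSC+RAW-TW against MSC, 3360 genes (41.5% higher) became 5862 with no fold limit, 2165 with GC and length trends removed (52.1% higher) and 3284 with the length trend removed (52.2% higher). There 5 members were called with no fold limit, adding Cxcr4 and Ccrl2, and Ccr2 turned to 0.54 with GC and length trends removed. In MSC+RAW-LPS-TW against MSC, 2243 genes became 4286 with no fold limit, and the called members held under each alternative except Ackr3 without MSC replicate 1. Depth limits Ackr3, Ccr7 and Cxcr2, the members with the fewest counts.

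The deviations of BMM libraries of the same replicate number correlated at 0.41, -0.03 and 0.35. Libraries of different numbers were not set beside them, so these values cannot decide whether the replicate number pairs the samples. Library numbers begin with 2100531 for replicate 2 and with 2100550 for replicates 1 and 3 in both groups. With the replicate block, all libraries separate, 2117 genes and 6 members were called in OVX against sham, adding Ccr1 (1.27) and Ccr7 (-1.71). The MSC+RAW-TW and MSC+RAW-LPS-TW columns carry no replicate numbers that match the labels, so the replicate number could not be a block in the MSC fit. A block on the library number, or on the suffix that 1 column of each MSC group carries, was added after the data were seen. All libraries separate, it called 1693 genes and 5 members in OVX against sham, 4489 and 3 in MSC+RAW-TW against MSC, 2383 and 6 in MSC+RAW-LPS-TW against MSC, and 6629 and 6 between MSC+RAW-LPS-TW and MSC+RAW-TW.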
